A study of Homo sapiens with 6 samples.

Results

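The genes described here are 42 members and targets of the WNT pathway, among 19974 protein-coding genes of the RefSeq table. They were taken as a list: 14 WNT ligands, 12 receptor genes (10 Frizzled genes, LRP5 and LRP6), 4 genes of the β-catenin destruction complex and β-catenin itself, 4 TCF/LEF factors, and 8 feedback genes, modulators and targets. Occupancy was measured by CUT&Tag, in which an antibody directs a transposase to cut the DNA next to a bound protein, in SK-N-BE(2) cells, a human neuroblastoma line long in culture that carries an amplified MYCN gene. Lists of peaks were available for 5 libraries: TCF4 (1 library), HAND2 (replicates 1 and 2) and MEIS2 (replicates 1 and 2). A library made with IgG, a non-specific antibody, is the sixth sample and has no peak list here. All libraries carry the same label for the cells, with no treatment, and nothing in the labels says that the replicates came from separate cultures. TCF4 therefore has no replicate check, and every HAND2 or MEIS2 comparison rests on a pair of libraries of 1 cell line.

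In WNT signalling, secreted WNT ligands bind Frizzled receptors and the co-receptors LRP5 and LRP6, which stops a complex of AXIN and APC from marking β-catenin for destruction. β-catenin then enters the nucleus and joins the DNA-binding TCF/LEF factors at genes such as AXIN2, NKD1, RNF43, ZNRF3, LGR5, SP5 and DKK1, several of which feed back on the pathway. WNT signalling also guides neural crest cells, the embryonic source of the sympathetic lineage from which neuroblastoma arises. A naming collision matters here. TCF7L2, a TCF/LEF factor and the main partner of β-catenin in many tissues, was long called TCF4 as well, whereas the gene now named TCF4 encodes an E protein, a basic helix-loop-helix factor that pairs with factors such as HAND2 and binds E-boxes. The antibody label gives the symbol TCF4 and was read as the E protein, a reading that was not tested. MEIS2 belongs to the TALE group of homeodomain proteins, known as partners of other factors on DNA.

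The stretches of DNA just before the starts of 6 members show the letters these factors are known to bind and the places where peaks did and did not stand. Each is the 250 bases before the listed start, from RefSeq on GRCh38.p14, written 5′ to 3′ on the strand of the gene. DKK1 (chr10:52314031-52314280, plus strand) is shown because peaks of 4 libraries covered its start, SP5 (chr2:170715087-170715336, plus strand) because no library had a peak there, and FZD5 (chr2:207769907-207770156, minus strand), AXIN1 (chr16:352724-352973, minus strand), NKD2 (chr5:1008552-1008801, plus strand) and LGR4 (chr11:27472791-27473040, minus strand) because TCF4 alone had one, over E-box letters in the first 3 and over none in LGR4. Capitals mark the letters TCF/LEF factors prefer, on either strand, in DKK1 and SP5: CTTTGAA, the related form CTTTGAT, or the form CTTTGTT. They mark the E-box letters CANNTG in FZD5, AXIN1 and NKD2.
DKK1: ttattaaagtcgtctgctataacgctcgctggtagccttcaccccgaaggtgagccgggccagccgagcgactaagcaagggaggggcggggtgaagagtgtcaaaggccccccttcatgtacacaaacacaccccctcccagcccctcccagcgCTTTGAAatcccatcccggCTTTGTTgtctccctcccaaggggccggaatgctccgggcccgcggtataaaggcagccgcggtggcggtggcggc
SP5: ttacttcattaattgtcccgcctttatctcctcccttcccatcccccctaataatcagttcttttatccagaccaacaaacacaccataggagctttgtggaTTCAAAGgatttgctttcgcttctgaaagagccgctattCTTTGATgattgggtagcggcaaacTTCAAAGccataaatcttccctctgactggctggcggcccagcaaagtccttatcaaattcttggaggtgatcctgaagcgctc
FZD5: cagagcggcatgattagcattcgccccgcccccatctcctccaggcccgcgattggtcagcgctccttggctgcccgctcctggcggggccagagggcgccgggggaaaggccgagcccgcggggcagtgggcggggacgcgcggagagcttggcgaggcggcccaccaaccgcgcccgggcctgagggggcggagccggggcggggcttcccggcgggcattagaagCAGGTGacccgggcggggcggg
AXIN1: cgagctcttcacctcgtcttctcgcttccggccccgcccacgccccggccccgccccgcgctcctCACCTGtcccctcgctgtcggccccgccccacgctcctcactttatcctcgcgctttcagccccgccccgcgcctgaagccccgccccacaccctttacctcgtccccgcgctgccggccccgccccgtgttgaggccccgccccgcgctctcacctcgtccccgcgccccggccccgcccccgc
NKD2: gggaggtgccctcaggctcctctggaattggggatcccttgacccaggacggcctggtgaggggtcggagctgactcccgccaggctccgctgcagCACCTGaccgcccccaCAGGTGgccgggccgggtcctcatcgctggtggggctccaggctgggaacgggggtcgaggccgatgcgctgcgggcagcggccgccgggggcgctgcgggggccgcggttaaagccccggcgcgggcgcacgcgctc
LGR4: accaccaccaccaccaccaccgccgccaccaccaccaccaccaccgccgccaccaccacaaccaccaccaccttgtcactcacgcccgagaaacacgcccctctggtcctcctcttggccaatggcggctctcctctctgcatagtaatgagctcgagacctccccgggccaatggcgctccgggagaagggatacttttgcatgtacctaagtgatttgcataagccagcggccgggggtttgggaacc
DKK1 held TCF/LEF letters 95 and 76 bases before the start and no E-box. SP5 held 3 matches, 148, 109 and 84 bases before the start, and no E-box. FZD5 had an E-box 22 bases before its start, AXIN1 had it at 185 bases, and NKD2 had a pair at 154 and 138 bases. A match describes letters in a window and shows no binding. These windows are examples. An E-box stood in 6 of 15 member windows that a TCF4 peak overlapped and in 12 of 22 that none overlapped. For these counts a peak could also overlap a short stretch past the start.

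The lists held 30704 TCF4 peaks, 30410 and 33484 HAND2 peaks, and 9595 and 13871 MEIS2 peaks on chromosomes 1 to 22 and X. The median number of fragments piled up at a summit was 60 for TCF4, 34 and 41 for HAND2, and 22 and 13 for MEIS2, so the lack of a listed MEIS2 peak does not show absence of the factor. HAND2 and MEIS2 were called present where a region held a peak of both replicates, which left 23304 HAND2 and 2311 MEIS2 regions. The peak names in the second MEIS2 list contain "Flag" in all 13876 cases, unlike those in the first, while the antibody label is the same for both. Noradrenergic neuroblastoma markers had TCF4 at a gene end in 8 of 8 genes (53.9% of all genes) and HAND2 in 8 (19.1%). MEIS2 stood in both replicates at 2 of them (0.946%) and in replicate 1 at 7 (11.5%). The 8 include the amplified MYCN, where background reached 2481 IgG fragments for TCF4, 2504 and 2462 for HAND2 and 2641 for MEIS2 replicate 1. The list medians were 14, 7, 8 and 11, and the part of this background was not tested. Of 4 fibroblast or mesenchymal markers, 1 had TCF4 and none had a HAND2 or MEIS2 region. HAND2 replicate 1 and MEIS2 replicate 1 each had a peak at 1 of the 4. Of 3 blood markers, none had TCF4 or MEIS2 and 1 had HAND2. Occupancy is not expression, and no expression was measured.

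Many of these genes carried the E protein TCF4 at a gene end, fewer carried HAND2, and none carried MEIS2 in both replicates. A gene end counted as occupied where a peak overlapped the 1 kb on either side of the start or the end of the gene. TCF4 had a peak there in 25 of the 42 genes (59.5%), against 53.9% of all protein-coding genes. HAND2 had a region there in 9 (21.4%), against 19.1% of all genes, and MEIS2 in 0, against 0.946%. With all listed peaks, these shares stood close to those of all genes. No gene of the list had all 3 factors at an end (0.661% of all genes), TCF4 with MEIS2 (0.746%) or peaks of all 5 libraries (0.701%). By library, the members with a peak numbered 9 in HAND2 replicate 1 (20.6% of all genes had one), 12 in HAND2 replicate 2 (27.8%), 3 in MEIS2 replicate 1 (11.5%) and 0 in MEIS2 replicate 2 (2.18%). Among the 16 genes with no peak of any library at an end (42.7% of all genes had none) were 9 ligands, WNT1, WNT2, WNT2B, WNT3, WNT3A, WNT5A, WNT5B, WNT7A and WNT10B. The others were the receptors FZD8, FZD10 and LRP5, the scaffold APC, the factor LEF1, the feedback inhibitor NKD1, and SP5.

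**Figure D1:**
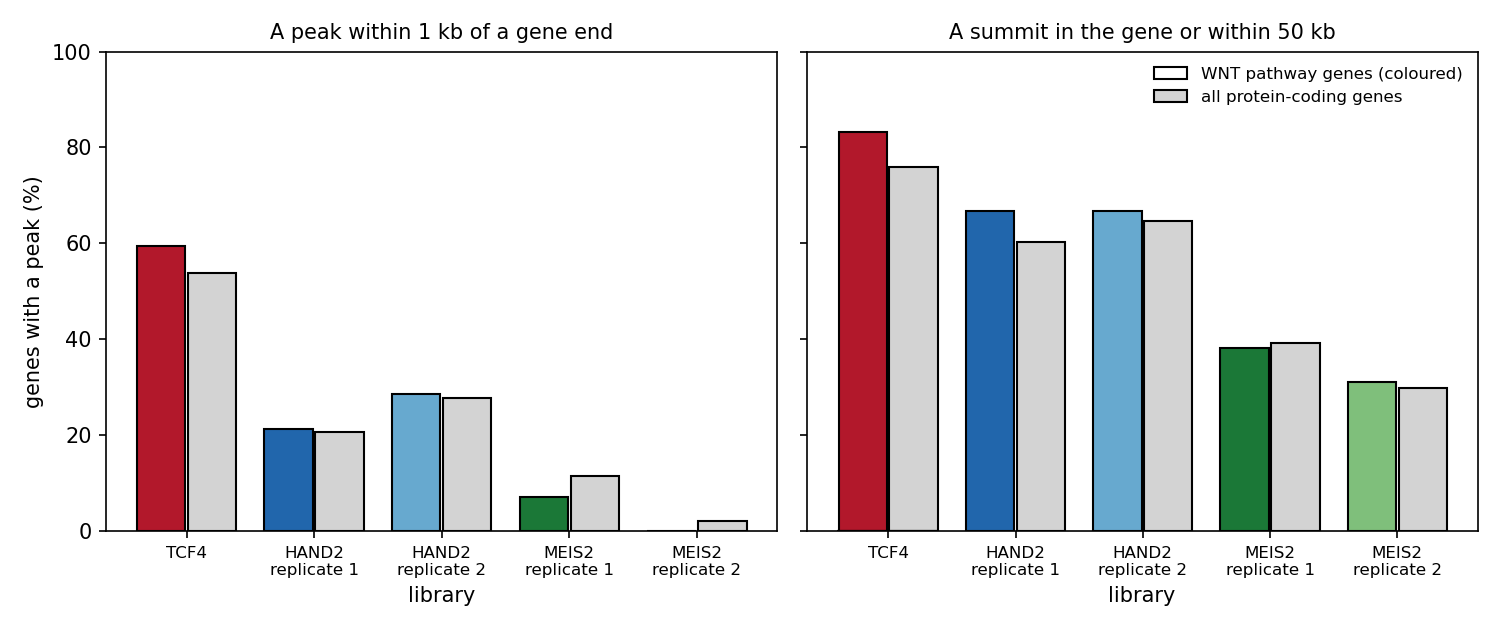
Share of genes with a peak within 1 kb of a gene end (left) and with a summit in the gene or within 50 kb (right), in percent, for each library, with the 42 WNT pathway genes in colour and all 19974 protein-coding genes in grey. At gene ends the paired bars stand at 59.5% and 53.9% for TCF4, and at 21.4% and 20.6%, and 28.6% and 27.8%, for HAND2 replicates 1 and 2. For MEIS2 they stand at 7.14% and 11.5% in replicate 1 and at 0% and 2.18% in replicate 2.

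All 9 genes with HAND2 at an end also had TCF4, and 17.8% of all genes had both. These were WNT6, FZD1, FZD2, FZD7, CTNNB1, TCF7, TCF7L1, ZNRF3 and DKK1. The other 16 genes with TCF4 had no HAND2 region (36.1% of all genes), and 0 had HAND2 without TCF4 (1.33%). Of the TCF4 genes in the list, 36.0% thus had HAND2, against 33.0% of all TCF4 genes, and the reverse share was 100% against 93.0%, both near the shares over all genes. At the 9 shared ends the TCF4 summit lay a median of 104 bp from that of HAND2 replicate 1, against 123 bp over all genes, and 119.5 bp from that of replicate 2 over 12 ends, against 100 bp.

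The folds below are the authors' and set the fragments at a summit against the background around it. Their 95% intervals cover counting error of the pile-up alone, with the background held fixed, so they leave out the error of the background. A fold ranks peaks within its list only. The member with the strongest TCF4 peak at an end was TCF7, at 17.4, and the weakest was FZD1, at 2.76. The median over the 25 genes was 4.85, against 5.33 over all genes with TCF4. For HAND2 the medians were 3.01 (2.27 to 11.3) in replicate 1 and 3.20 (2.14 to 13.7) in replicate 2, against 3.47 and 3.38 over all genes. The medians over the whole lists, at gene ends and elsewhere, were 4.98 for TCF4 and 5.08 and 4.67 for HAND2, so most HAND2 peaks at these ends stood low in their lists.

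**Figure D2:**
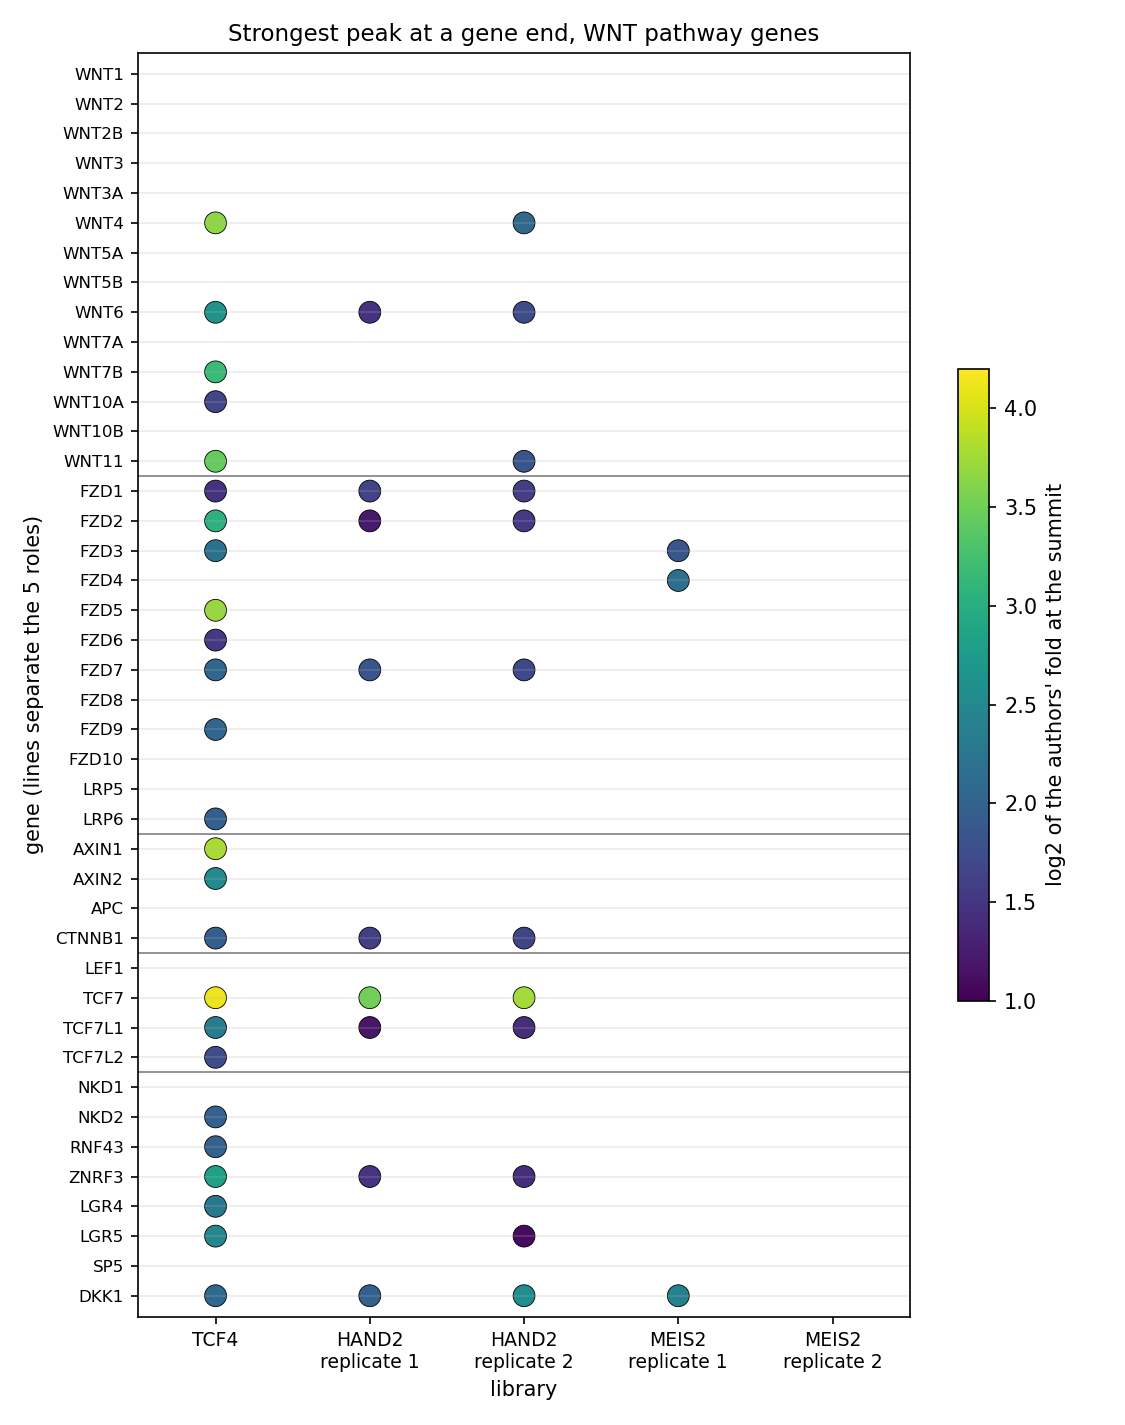
The authors' fold of the strongest peak at a gene end, as colour on a log2 scale, for each WNT pathway gene (rows, in 5 roles) and library (columns), with an empty place where no peak was listed. TCF7 has the brightest points, at folds of 17.4 for TCF4 and 11.3 and 13.7 for HAND2, and the column of MEIS2 replicate 2 is empty.

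Within 1 kb of a gene end, the highest TCF4 and HAND2 folds of the list stood at a TCF/LEF factor gene, TCF7. TCF7 (chromosome 5, 134108218 to 134148210) encodes TCF-1, the TCF/LEF factor best known from T cells. At its 5′ end TCF4 had a fold of 17.4 (15.9 to 19.0), on a pile-up of 507 fragments, within the top 5.93% of its list. HAND2 had 11.3 (10.1 to 12.6) and 13.7 (12.4 to 15.0) in replicates 1 and 2. Both HAND2 summits fell on the same base, 663 bp before the gene, and that of TCF4 lay 730 bp before it. The place lies inside the listed gene VDAC1, which overlaps this end of TCF7. No listed start of TCF7 lies at this end. It carried 34 to 36 IgG fragments, against list medians of 14 for TCF4 and 7 and 8 for HAND2, and both calls are lost once peaks over 30 or more IgG fragments are left out. The part of that background in the result was not tested. Further into TCF7, 1781 bp past a listed inner start at 134123618, TCF4 had another peak of 10.9, with HAND2 at 3.40 and 4.21.

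TCF7L1 and TCF7L2 showed little at their starts and more elsewhere. TCF7L1 (chromosome 2, 85133392 to 85310387), the family member known chiefly as a repressor, had TCF4 at 3.88 at its start, 221 bp upstream, and at 4.98 at its 3′ end. HAND2 had 2.27 (1.55 to 3.21) and 2.65 (2.01 to 3.43) at the 3′ end only, near the bottom of both lists, and the HAND2 call is lost at a −log10 q of 5 or more. Inside the gene a span 82114 bp from the nearest end held TCF4 at 12.6, HAND2 at 5.34 and 9.32 and MEIS2 replicate 1 at 6.14.

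TCF7L2 (chromosome 10, 112950247 to 113167678), at 217432 bp the longest member, had no HAND2 region at an end but many away from its ends. At the start it had TCF4 alone, a weak peak of 3.39 (2.16 to 5.10) on 21 fragments with its summit 1310 bp inside the gene. In the gene body and the 50 kb on either side, however, TCF4 had 7 summits, HAND2 had 20, the most of any member, and MEIS2 had 1. The length of the gene widens this window, and its part in the count was not tested. By library the summits numbered 24 and 26 for HAND2, and 5 and 8 for MEIS2. Of the 35 merged spans near the gene, 10 held both HAND2 libraries and no other. The region shared by both HAND2 and both MEIS2 libraries (113057913 to 113059598) had HAND2 at 13.5 and 14.9 and MEIS2 at 11.4 and 4.64, with no TCF4 peak. Beyond the 3′ end, 19647 bp away, TCF4 had its own high point at 49.4 (44.9 to 54.2), within the top 0.404% of its list, together with HAND2 at 19.3 and 26.2 and MEIS2 replicate 1 at 9.49. LEF1 (chromosome 4, 108047548 to 108168932), the fourth factor, had no peak at an end and no summit of any library in the gene or within 50 kb.

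Among the destruction complex and β-catenin genes, TCF4 stood at an end of 3 of 4 (53.9% of all genes) and HAND2 of 1 (19.1%). AXIN1 (chromosome 16, 287440 to 352723), the scaffold of the complex, had a TCF4 fold of 13.7 (12.7 to 14.7) on 721 fragments, with the summit 183 bp upstream of the start and within the sequence printed above. No HAND2 or MEIS2 peak was listed there. The background under it was 66 IgG fragments. A TCF4 peak of 4.78 stood at the other end of AXIN1, which keeps the gene called when peaks over high background are left out. AXIN1 also had 20 TCF4 summits in the gene and its flanks and 0 HAND2 regions, although HAND2 replicate 2 had 2 summits there. The strongest TCF4 peak of the neighbourhood, at 35.4, lay 29101 bp outside the gene, inside PGAP6.

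AXIN2 (chromosome 17, 65528563 to 65561648), a feedback target of β-catenin, had TCF4 at 5.73 (4.75 to 6.86), 250 bp inside its higher-coordinate end, and no HAND2 or MEIS2 peak at an end. Away from the ends, 3350 bp inside the lower one, a span held TCF4 at 4.72 and HAND2 at 2.46 and 2.46. CTNNB1 (chromosome 3, 41199505 to 41240443), which encodes β-catenin, had TCF4 at 3.84 (2.92 to 4.95) and HAND2 at 3.01 (2.171 to 4.07) and 3.14 (2.34 to 4.14). The 3 summits lay 273, 311 and 149 bp upstream of the start. These are low folds in their lists, with 70.0%, 86.3% and 79.6% of peaks ranked at or above them. APC, the other scaffold, had no peak at an end and no summit of any library within reach.

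Receptor genes had TCF4 at an end in 8 of 12 (53.9% of all genes), HAND2 in 3 (19.1%) and a peak of MEIS2 replicate 1 in 2 (11.5%). FZD5 (chromosome 2, 207762598 to 207769906) was the highest, with TCF4 at 13.0 (11.8 to 14.3) on 441 fragments and the summit 1 bp inside the start, over 42 IgG fragments. It had no other library at an end, and the call is lost without peaks of 30 or more IgG fragments. FZD2 (chromosome 17, 44557484 to 44561262) had TCF4 at 8.32 (7.19 to 9.59), and HAND2 at 2.33 (1.80 to 2.98) and 2.89 (2.32 to 3.55). Over the same place the background was 28 to 33 IgG fragments, and the HAND2 call is lost where those peaks are left out. FZD7 (chromosome 2, 202033855 to 202038441), had TCF4 at 4.15 (3.35 to 5.09) and HAND2 at 3.58 (2.59 to 4.82) and 3.26 (2.53 to 4.13). FZD1 had TCF4 at 2.76 (2.11 to 3.55) and HAND2 at 3.13 (2.33 to 4.11) and 2.99 (2.27 to 3.88), with summits 136, 18 and 21 bp inside the start. FZD7 was also among the 6 genes with fewer TCF4 than HAND2 summits around them, at 3 and 6, and HAND2 replicate 1 reached 23.5 at 25990 bp outside it.

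MEIS2 at a receptor gene end rested on replicate 1 alone. FZD4 (chromosome 11, 86945679 to 86955395), the receptor for norrin as well as WNT ligands, had MEIS2 replicate 1 at 4.46 (3.01 to 6.37), 195 bp inside its start, and no other library there. FZD3, a receptor known for axon guidance, had TCF4 at 4.59 (3.70 to 5.63) and MEIS2 replicate 1 at 3.62 (2.39 to 5.27), with summits 131 and 130 bp inside the gene. MEIS2 replicate 2 had no peak at either gene end.

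TCF4 alone stood at the remaining receptor genes with a peak. LRP6 had 3.93, FZD6 2.93 and FZD9 4.16 at its 3′ end, with 3.34 at the start. LRP5 (chromosome 11, 68298412 to 68449275), the co-receptor, had no peak within 1 kb of an end, but the most TCF4 summits of any member: 38 in the gene and the 50 kb around it, against 15 for HAND2 and 0 for MEIS2. The listed start that lies 14179 bp inside its annotated span did carry peaks, at 7.61 for TCF4 and 3.49 and 4.37 for HAND2. Inside the gene TCF4 reached 30.1 (28.2 to 32.1), 75363 bp from the nearest end, where HAND2 had 6.55 and 7.58 and MEIS2 replicate 1 had 7.71. Another span, from 68441025 to 68443054, had peaks of the same libraries, with TCF4 at 5.46, HAND2 at 14.7 and 15.3, and MEIS2 replicate 1 at 21.5 (16.9 to 26.8), its highest fold near any of the 42 genes. MEIS2 replicate 2 had no summit in or near LRP5.

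Of 14 ligand genes TCF4 stood at an end of 5 (53.9% of all genes), HAND2 of 1 (19.1%) and MEIS2 of 0 (0.946%). Differences between the roles were not tested. WNT4 (chromosome 1, 22117313 to 22143097) had TCF4 at 12.6 (9.90 to 15.9), 558 bp inside the start. Only HAND2 replicate 2 had a peak there, at 4.24 (2.82 to 6.14). WNT11, a ligand best known for cell movements outside the β-catenin route, had TCF4 at 10.9 (9.20 to 12.9) and HAND2 replicate 2 alone at 3.58 (2.64 to 4.76). That TCF4 summit lay 1550 bp outside the gene, and the TCF4 call is lost if the summit itself must lie in the window. WNT11 had 15 TCF4 summits in its window against 3 for HAND2, and the strongest TCF4 peak, 16593 bp outside, reached 19.5 (17.8 to 21.3). WNT6 was the ligand with HAND2 in both replicates, at 2.76 (2.00 to 3.72) and 3.33 (2.50 to 4.35), with TCF4 at 6.30 (5.18 to 7.59). Its summits lay 1039 to 1196 bp inside the gene, so both calls are lost if the summit itself must lie in the window. WNT10A, which overlaps WNT6, had TCF4 at 3.18 (2.42 to 4.10) at its 3′ end, and the pair share 11 TCF4 and 9 HAND2 summits in their windows. A stronger TCF4 peak, of 8.36 (6.71 to 10.3) on 86 fragments, reached within 1 kb of the listed inner start of WNT10A at 218880852. The summit of that peak lay upstream of this start and outside the 1 kb.

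WNT7B (chromosome 22, 45920366 to 45977162) had the highest TCF4 folds near any member. At its ends TCF4 had 9.02 (7.48 to 10.8), with the summit 1823 bp outside the gene. In the gene and its flanks TCF4 had 24 summits, HAND2 7 and MEIS2 0. Spans beyond the higher-coordinate end reached TCF4 folds of 48.3, 62.4 and 84.7 at 20432, 30739 and 37818 bp from the gene. The last, from 46010357 to 46015531, ranked at place 10 in the whole TCF4 list, with an interval of 79.6 to 90.1. HAND2 had 14.3 and 26.4 in it and MEIS2 replicate 1 had 7.63, and the other 2 spans also held both HAND2 libraries and MEIS2 replicate 1. The gene end nearest to the last span is that of LOC124905135, 29664 bp away, so its assignment to WNT7B is by distance only.

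Several ligand genes without an occupied end had strong peaks inside them. WNT3 (chromosome 17, 46762506 to 46818692) held TCF4 at 3.01, HAND2 at 22.1 and 21.4 and MEIS2 replicate 2 at 4.95 in a span 2267 bp from an end, and TCF4 at 15.3 further in. WNT5B (chromosome 12, 1617056 to 1647212) had TCF4 at 18.2 (16.1 to 20.6), HAND2 at 2.87 and 3.65 and MEIS2 replicate 1 at 6.13 in a span that covered a listed inner start, with the TCF4 summit 987 bp past it. A second span in WNT5B held HAND2 at 21.3 and 19.3 and MEIS2 replicate 1 at 13.9, and no TCF4. WNT3A had 7 spans in its window, all of TCF4 alone at folds of 2.86 to 5.56. WNT2 and WNT5A, like FZD10, APC and LEF1, had no summit of any library in the gene or within 50 kb.

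Among the 8 feedback genes and targets TCF4 stood at an end of 6 (53.9% of all genes) and HAND2 of 2 (19.1%). DKK1 (chromosome 10, 52314281 to 52317657), a secreted inhibitor that binds LRP5 and LRP6, had peaks of 4 libraries at its start, the most of any member. TCF4 had 4.24 (3.33 to 5.31), HAND2 had 3.92 (3.08 to 4.93) and 5.92 (4.78 to 7.26), and MEIS2 replicate 1 had 5.27 (3.68 to 7.34). Summits lay 28, 6 and 69 bp past the start for TCF4, HAND2 replicate 1 and MEIS2 replicate 1, and 208 bp before it for HAND2 replicate 2. DKK1 was the only member with all libraries but MEIS2 replicate 2 at an end, a combination held by 6.62% of all genes. ZNRF3, a ubiquitin ligase that removes Frizzled from the cell surface, had TCF4 at 7.04 (5.90 to 8.34) and HAND2 at 2.79 (1.99 to 3.82) and 2.68 (2.05 to 3.44). Its partner RNF43 had TCF4 at 3.95 (3.08 to 4.99), at the 3′ end and not the start, in a peak that also reached an end of SUPT4H1. The inhibitor gene NKD2 and LGR4, a receptor for R-spondins, had TCF4 alone at 3.94 (2.86 to 5.29) and 4.85 (4.004 to 5.81).

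LGR5 (chromosome 12, 71439129 to 71586310), a receptor for R-spondins and a stem cell marker in the intestine, was the member with the most MEIS2 regions, 2, beside 2 TCF4 and 4 HAND2 summits. At its lower-coordinate end it had TCF4 at 5.59 (4.55 to 6.80) and a marginal peak of HAND2 replicate 2 at 2.14 (1.54 to 2.90). About 27104 bp from the other end, all 5 libraries had a peak in the span from 71556307 to 71559493. TCF4 had 4.62 there, near the median of its list. HAND2 had 48.9 (40.8 to 58.3) and 30.2 (24.1 to 37.3), within the top 0.529% and 1.22% of its lists, and MEIS2 had 15.8 (10.3 to 23.4) and 23.8 (17.2 to 32.1). The summit of MEIS2 replicate 2 lay at 71557047, apart from those of the other libraries at 71558936 to 71559206. The next shared span, from 71562526 to 71563858, held HAND2 at 23.3 and 19.99 and MEIS2 at 10.6 and 10.9, and no TCF4. NKD1 and ZNRF3 had the other spans of all 5 libraries. Such spans made up 3 of the 315 merged spans near the members (0.952%, against 1.62% near all genes). In NKD1, 32258 bp inside the gene, TCF4 had 9.47, HAND2 7.67 and 10.02, and MEIS2 8.45 and 5.04. The span near ZNRF3 lay 23031 bp outside it, inside KREMEN1, with TCF4 at 5.002, HAND2 at 23.1 and 13.3, and MEIS2 at 9.22 and 5.10. In its window ZNRF3 had 5 TCF4 and 10 HAND2 summits.

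**Figure D3:**
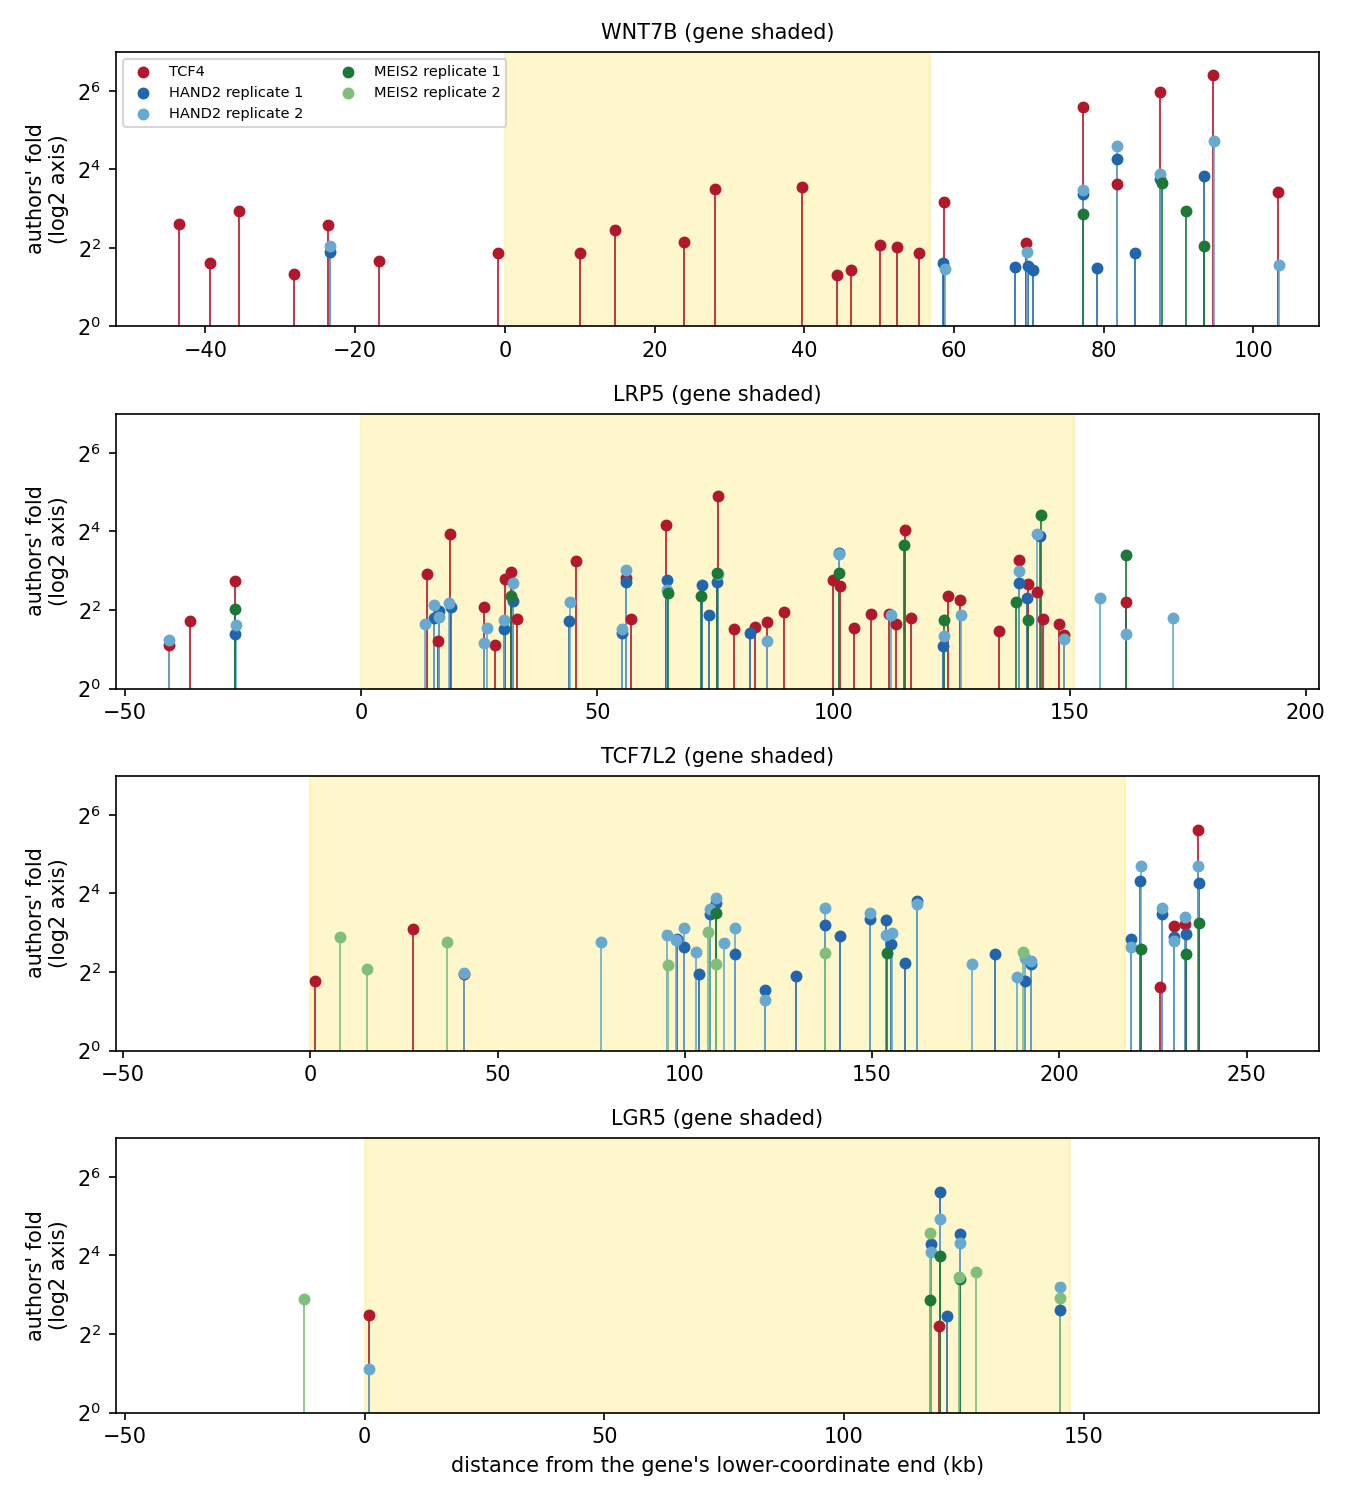
The authors' fold at each summit (log2 axis) against the distance from the lower-coordinate end of the gene in kb, for WNT7B, LRP5, TCF7L2 and LGR5, with 1 point per peak, colour for the library and the gene shaded. TCF4 folds of 48.3 to 84.7 stand beyond WNT7B, HAND2 peaks fill the middle of TCF7L2, and the highest folds in LGR5 are those of HAND2, 48.9 and 30.2, beside MEIS2 at 15.8 and 23.8.

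SP5, a direct target gene of β-catenin in many cell types, had no peak at its ends although its promoter held the most TCF/LEF matches of the member windows searched. The only region in its window was a HAND2 region 20002 bp upstream, with folds of 5.06 (3.76 to 6.68) and 7.37 (5.82 to 9.21).

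Counted over gene bodies and the 50 kb around them, 35 of the 42 genes had a TCF4 summit (76% of all genes), 26 had a HAND2 region (55.8%) and 4 had a MEIS2 region (9.39%). In single libraries the genes numbered 28 and 28 for HAND2 (60.2% and 64.7% of all genes) and 16 and 13 for MEIS2 (39.3% and 29.8%). The members had 211 TCF4, 110 HAND2 and 5 MEIS2 summits in all. By library there were 139 and 166 for HAND2 and 44 and 34 for MEIS2. These genes are long, with a median length of 39771 bp against 24170.5 bp over all genes, which widens their windows. Per 100 kb of window the medians were 1.84 TCF4 and 0.760 HAND2 summits, against 1.37 and 0.642 over all genes. TCF4 summits outnumbered HAND2 summits in 25 members (59.5%, against 56.7% of all genes) and HAND2 outnumbered TCF4 in 6 (14.3%, against 12.4%). This balance sets all peaks of 1 TCF4 library against HAND2 regions of both replicates, a stricter count, and the part of that rule was not tested.

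**Figure D4:**
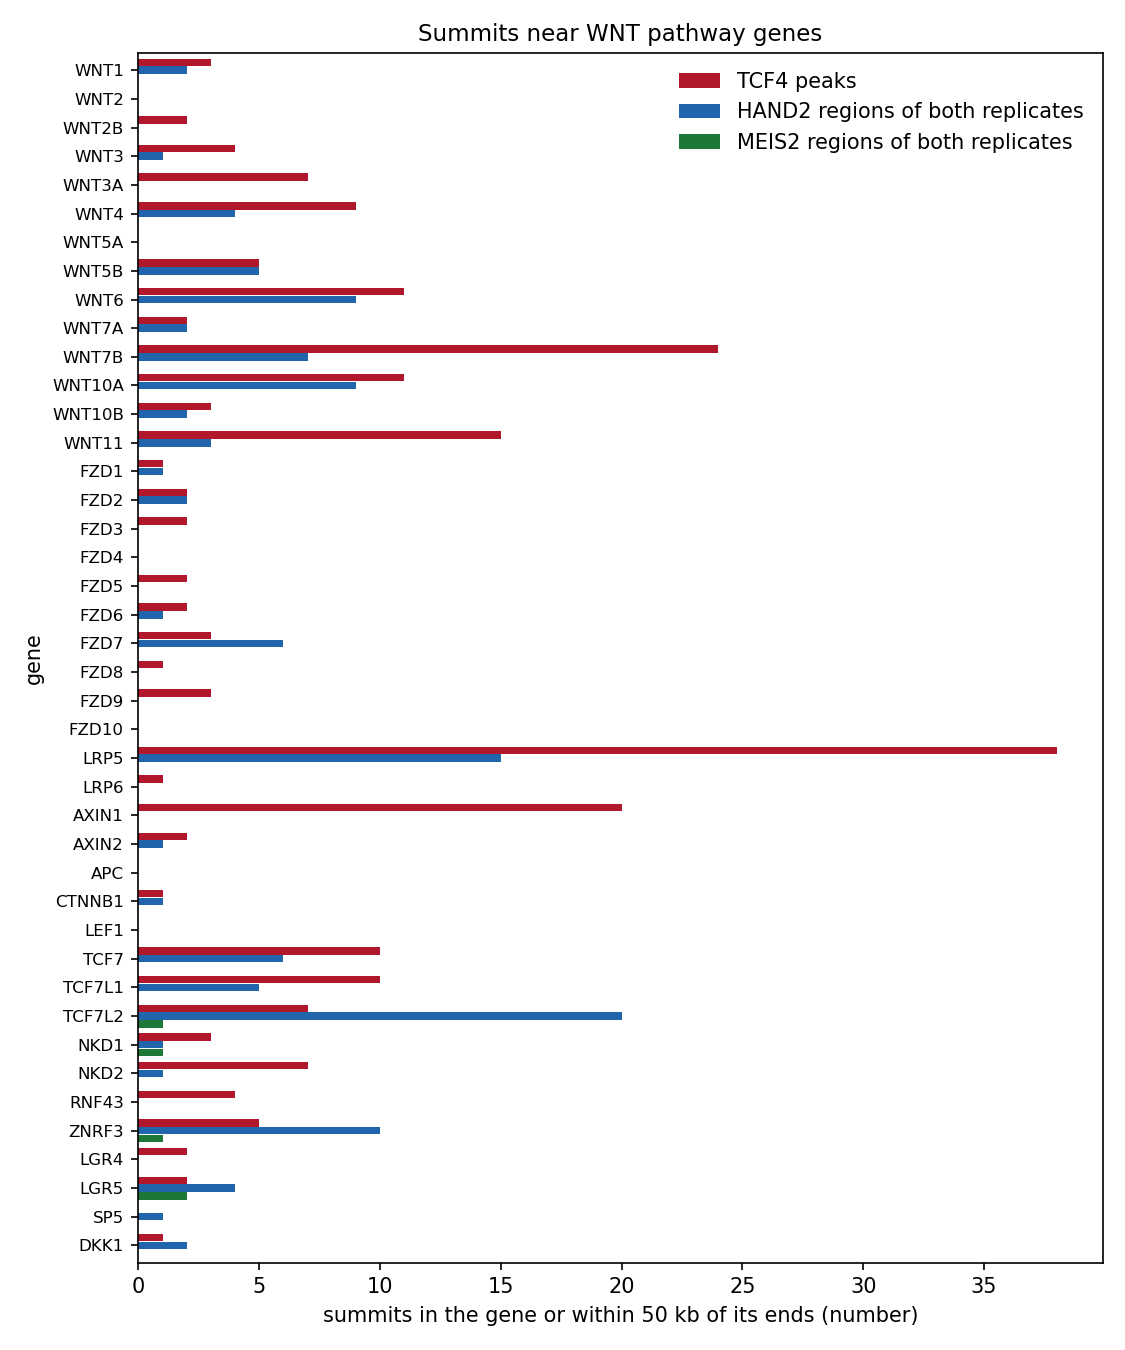
Number of TCF4, HAND2 and MEIS2 summits in each WNT pathway gene or within 50 kb of its ends, with HAND2 and MEIS2 counted as regions of both replicates. LRP5 has the most TCF4 summits, 38, TCF7L2 has the most HAND2 summits, 20, and MEIS2 appears at TCF7L2, NKD1, ZNRF3 and LGR5.

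Merging overlapping peaks of all libraries gave 315 spans near the members. TCF4 alone made up 108 of them (34.3%), against 24.2% of the 51847 spans near all genes. TCF4 alone was frequent in a few genes, in 16 of 20 spans at AXIN1, 16 of 26 at WNT7B, 12 of 37 at LRP5 and 9 of 17 at WNT11. TCF4 with both HAND2 libraries made up 43 spans (13.7%, against 12.1%), and the same with MEIS2 replicate 1 made up 19 (6.03%, against 6.76%). Both HAND2 libraries alone made up 28 spans (8.89%, against 11.7%), and MEIS2 replicate 2 alone 19 (6.03%, against 11.4%). Spans that lie near the same gene are not independent, and no test was made of these shares. For 231 of the 315 spans the nearest gene end was that of a member, and for 84 it was that of another gene.

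**Figure D5:**
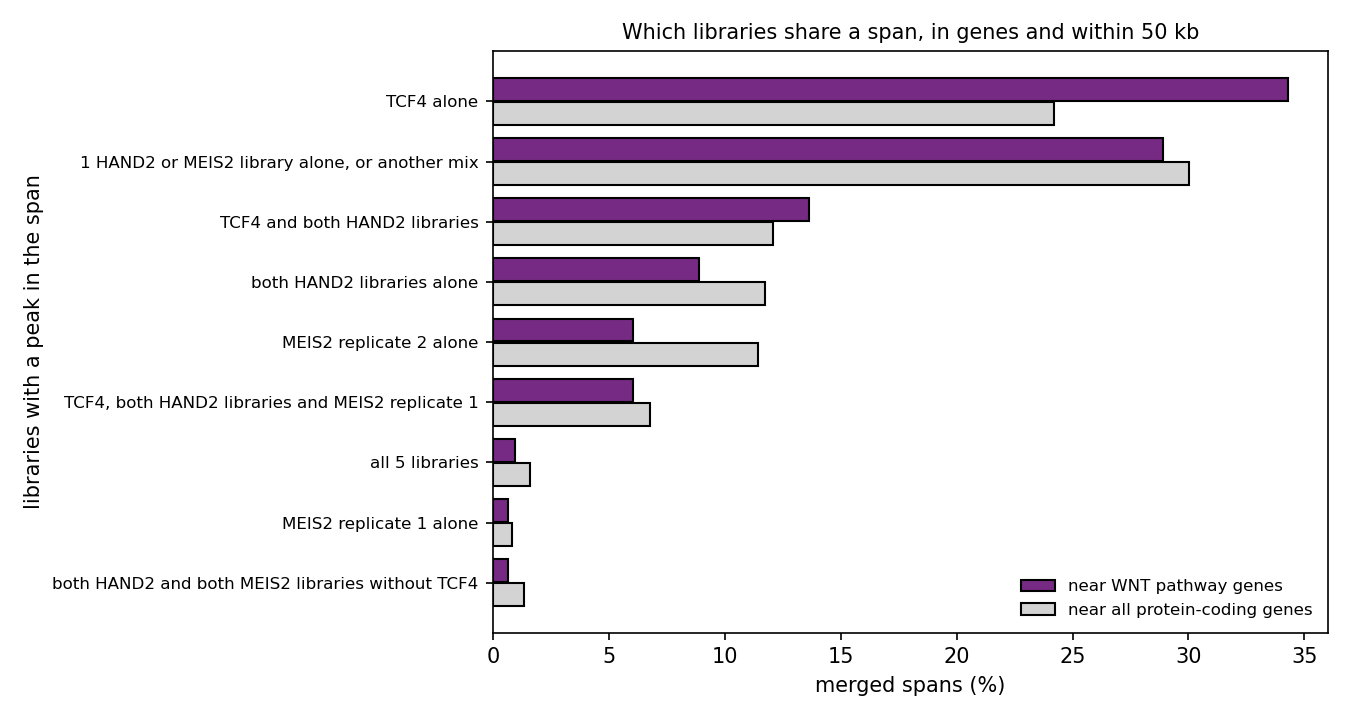
Share of merged spans, in percent, by the libraries with a peak in them, near the WNT pathway genes (315 spans, purple) and near all protein-coding genes (51847 spans, grey). TCF4 alone is the most frequent combination near the pathway genes, at 34.3% against 24.2%.

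Of the 211 TCF4 peaks near the members 73 overlapped a HAND2 region (34.6%), against 40.2% near all genes. Of the 110 HAND2 regions 67 overlapped a TCF4 peak (60.9%, against 56.4%). All 5 MEIS2 regions overlapped HAND2 (100%, against 88.2%) and 3 overlapped TCF4 (60%, against 48.1%), counts too small to set against these shares. TCF4 summits at a gene end made up 23.2% of those near members, against 33.6% near all genes.

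Letters known to be bound by the factors were looked for in the 250 bases before 37 listed starts of 29 members, on both strands. FZD2, FZD3, FZD6, FZD7, FZD10, LRP6, WNT7B, WNT10B, WNT11, AXIN2, NKD1, ZNRF3 and LGR5 were not matched. The TCF/LEF letters, which are CTTTGAA, the related form CTTTGAT, or the form CTTTGTT, stood in 4 of the 37 windows (10.8%), against 8.30% of 22140 windows of all genes. These were the windows of DKK1 and SP5 and those of inner starts of TCF7 and TCF7L2. An E-box, CANNTG, stood in 18 windows (48.6%, against 58.1%), in the form CAGCTG in 4 (10.8%, against 13.7%) and as CATCTG or CAGATG in 2 (5.41%, against 10.2%). The MEIS letters TGACAG stood in 1 window, that of WNT3 (2.70%, against 12.1%), and TGATTGAT in 0 (against 0.316%). The median GC content of these windows was 68.8%, against 62.0% over all genes, and the part of base composition in these shares was not tested.

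Peak overlap was judged over each window and a short stretch past the start, and letters over the window alone. An E-box stood in 6 of 15 windows of members that a TCF4 peak overlapped (40%) and in 12 of 22 that none overlapped (54.5%). Over all genes the shares were 50.5% and 65.3%, and the median GC content 68.0% and 54.0%. The TCF/LEF letters stood in 1 of the 15 windows with a TCF4 peak, that of DKK1, and in 3 of the 22 without (6.67% and 13.6%), against 4.59% and 11.8% over all genes. The 6 windows with a TCF4 peak and an E-box were those of AXIN1, FZD5, NKD2 and WNT6 and of inner starts of WNT2B and WNT5B. Among those with a TCF4 peak and no E-box were the windows of WNT4, CTNNB1, TCF7L1, FZD1, LGR4 and DKK1 and of the inner start of LRP5.

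A wider list held 76 other genes of the pathway, such as co-repressors, kinases and further target genes. TCF4 stood at an end of 49 (64.5%, against 53.9% of all genes), HAND2 of 22 (28.9%, against 19.1%) and MEIS2 of 2 (2.63%, against 0.946%), and 25 had no peak of any library at an end (42.7% of all genes had none). The highest TCF4 folds stood at CCND1, the cyclin D1 gene, at 31.9 (28.8 to 35.3), at ROR2, a receptor for WNT5A, at 24.1, at CSNK1D, a casein kinase, at 14.4, and at TLE4, a co-repressor of TCF/LEF factors, at 14.0. HAND2 was highest at BAMBI, a TGF-β pseudoreceptor, at 16.9 and 15.6, then at the co-repressor genes TLE1 (6.24 and 7.55) and TLE3 (4.93 and 6.12) and at ROR2 (5.59 and 4.85). MEIS2 stood in both replicates at TLE3, at 6.84 and 3.88, and at BCL9, a partner of β-catenin, at 3.58 and 4.42. In single MEIS2 libraries the highest were NLK, a kinase that acts on TCF/LEF factors, at 18.3 in replicate 1, and TNFRSF19 at 5.10 in replicate 2.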

How the data were processed

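Libraries were grouped by the antibody in the labels, and the members and lists were chosen with earlier results of these data known. Per the submitters' processing notes the authors used bcl2fastq 2.17, Bowtie2 and MACS3 3.0.0a6 with hg38. Settings of the aligner and caller, and any duplicate removal, were not stated per the labels or notes. The deposited lists give, per peak and called per sample, a fold (a ratio of summit pile-up to local background), −log10 p and −log10 q, and a score that was not used. Peaks were ordered by the authors' fold, each list on its own. Whole pile-ups were recovered from fold and p within a relative tolerance of 5e-05 (100% of peaks, 98.8% for MEIS2 replicate 1). The local background was divided by an inferred unit to give IgG fragments (the TCF4 list was taken as called against the same IgG control). Depth relative to IgG was 0.784 for TCF4, 0.789 and 0.932 for HAND2, and 0.248 and 0.368 for MEIS2. Of the backgrounds used to find the unit, 70.4% for TCF4 lay near a whole multiple of it. The shares were 65.6% and 67.2% for HAND2, and 68.7% and 45.5% for MEIS2, so IgG fragments are approximate. Intervals are exact 95% Poisson intervals and cover counting error only, since PCR copies cannot be told from separate molecules.

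Peaks were overlapped by at least 1 bp in Python 3.11.15 (numpy 2.4.6, scipy 1.17.1, pandas 2.3.3). Peaks on other sequences, 7 of TCF4 and 3 and 5 of MEIS2, were left out. Gene positions, and starts, strands and promoters of 29 members, came from RefSeq GRCh38.p14. No genome was used, so exons are not given, and 13 members have no strand. Recovery and overlap were tested on simulated data, where 100% of 5000 pile-ups came back. An exact permutation test over these samples cannot go below p = 0.333 and no other test over samples was made. Genes are not replicates, so counts are set beside those of all genes. Values in every library are given for the 8 strongest TCF4 and HAND2 members, those with MEIS2 at an end, the 5 with most summits per factor, and 7 genes named in advance (TCF7, TCF7L1, TCF7L2, LEF1, CTNNB1, AXIN2, SP5). Alternatives covered thresholds, list length, background, windows, replicate overlap and each left-out replicate.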

Additional observations from a re-analysis of the deposited data

How the results depend on the processing

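Of 61 counts recomputed under the alternatives, 47 stayed within 1.5 times the value in the report. Without peaks of 30 or more IgG fragments, TCF4 stood at 23 of the 42 members, against 40% of all genes, and HAND2 at 7, against 14.1%. The share of TCF4 members then lay further above that of all genes than with all peaks. With the 5000 highest peaks per library, TCF4 stood at an end of 5 members (8.51% of all genes), HAND2 at 1 (0.976%), both at 1, and the summits were 33 for TCF4, 21 for HAND2 and 2 for MEIS2. With a window of 2 kb, HAND2 stood at 14 members (21.8% of all genes), each with TCF4, and with flanks of 10 kb the TCF4 summits were 135, and with 100 kb those of MEIS2 were 9. Leaving out a replicate gave 9 to 12 members with HAND2, 9 to 12 with HAND2 and TCF4 (WNT4, WNT11 and LGR5 join without HAND2 replicate 1), 0 to 3 with MEIS2 (FZD3, FZD4 and DKK1 join without MEIS2 replicate 2), 139 to 166 HAND2 summits and 34 to 44 MEIS2 summits. Calls of single genes held in 217 of 274 cases. With 5′ ends alone, among the members with a listed start, TCF4 stood at 17 (55.7% of all genes with one) and HAND2 at 7 (18.8%), with WNT2B, WNT5B and LRP5 joining and RNF43 lost for TCF4, and WNT5B and LRP5 joining and TCF7L1 lost for HAND2. No paired analysis was possible because these results come from counts of peaks and from no test. The median pile-ups of MEIS2, 22 and 13 fragments, were below those of the other lists, and weak MEIS2 peaks may not be listed.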
